A study of Drosophila melanogaster with 48 samples.

Results

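SPR encodes the sex peptide receptor, a G protein-coupled receptor at the cell surface. It is 1 of the 23932 features in the count tables and was found by its FlyBase symbol, which the reference annotation pairs with FBgn0029768. Its RNA was followed in 48 libraries from dissected brains of Drosophila melanogaster that the labels give as WT. Per the study's methods, flies not otherwise described came from a cross of nSyb-GAL4 males, which carry a pan-neuronal driver, with w1118 females. The brains came from males (M), females mated with wildtype males (F), females mated with SP0 males, which lack sex peptide (SP), and virgin females (V). Each kind of fly received either very mild head trauma on day 3 after eclosion (D3Inj) or sham handling, and brains were collected on day 4 or on day 45. Each of these 16 groups holds 3 libraries, and each library was made from a separate cohort of 40 flies.

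Sex peptide is made in the male accessory gland and passes to the female with the seminal fluid. It binds SPR on sensory neurons of the female reproductive tract, and the mated female then lays more eggs and rejects further males. SPR also responds to myoinhibitory peptides, which the Mip gene encodes and which brain neurons of both sexes release, so the receptor has a ligand in flies that never mated. It signals through inhibitory G proteins and lowers cyclic AMP.

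Total counts per library were between 21495740 and 60637359. The column header and the deposit record named different samples for 47 of the 48 tables, and groups were taken from the header, with the word "young" read as D3Inj. The dosage compensation RNA roX1, made in males, lay between 5520 and 6323 CPM (counts scaled to a common library size) in libraries with a male header and between 16.9 and 56.7 CPM in those with a female header, so 0 libraries went against the sex in the header, against 20 by the record. No gene was used that could check which female libraries came from virgin, wildtype-mated or SP0-mated flies, or which were injured.

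SPR lies on chromosome X from 5446656 to 5494012 on the forward strand (dm6), with 4 annotated transcripts over 7 separate stretches of exon that total 3730 bases. Of these transcripts 3 encode 435 codons and 1 encodes 512 codons. The 3′ end of SPR shares 999 exonic bases with frma, a gene on the reverse strand from 5493014 to 5496052 that is known from the network of male and female genes on which the lasting response to sex peptide depends. The strand setting of the counting is not given in the sources used here, so reads from the shared stretch may not be told apart. frma was far lower than SPR, with a mean of 5.79 CPM. An insertion of the I element, I{}62, lies within an SPR intron and shares 0 exonic bases with it. The nearest gene before SPR is lncRNA:CR44471 at 10859 bases, and the nearest after it is CG32762 at 6196 bases.

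SPR was well measured in all libraries, with 2200 to 7154 counts and a mean of 107.79 CPM. Per kilobase of exon it averaged 28.9 CPM, above 82% of the 12672 annotated genes that passed the filter on low counts. Of the 39 peptide receptors of the list that were in the tables, SPR had the highest level per kilobase in all 4 kinds of fly on both days. The next were sNPF-R, the receptor of short neuropeptide F, at 22.4 CPM per kilobase and Pdfr, the receptor of the clock neuropeptide PDF, at 20.3 CPM per kilobase.

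**Figure D1:**
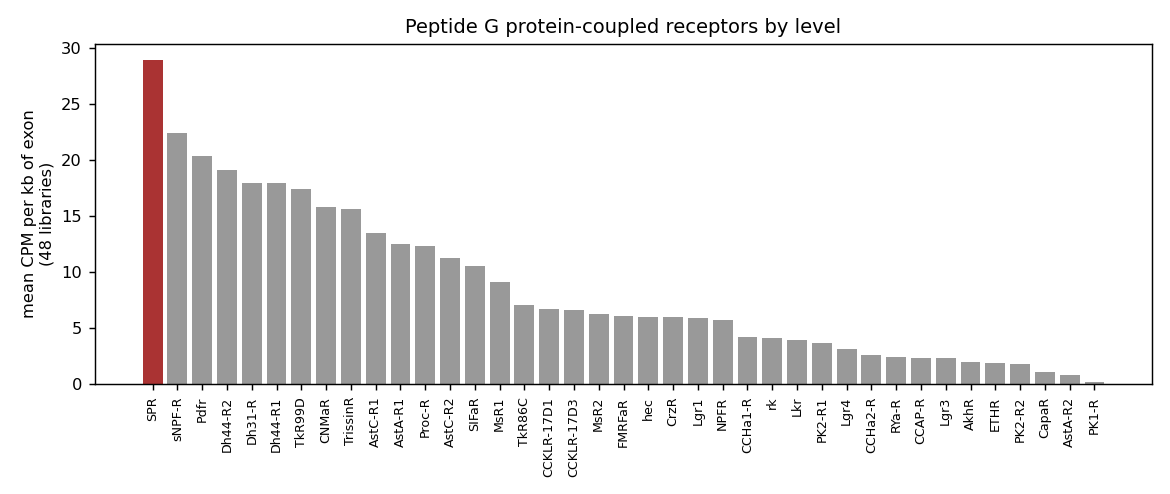
Mean level of 39 peptide G protein-coupled receptors over 48 libraries, in CPM per kilobase of merged exon (bars, axis from 0), sorted from high to low with SPR in red. SPR stands first at 28.9, followed by sNPF-R at 22.4 and Pdfr at 20.3.

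The question on day 4 was whether mating, sex peptide or sex goes with a different level of the receptor RNA in the brain. The differences were small. SPR was lowest in SP0-mated and wildtype-mated females and highest in virgin females, with males between them. In males the 6 libraries ran from 96.8 to 108 CPM with a median of 101 CPM. In wildtype-mated females they ran from 90.9 to 105 CPM with a median of 93.5 CPM. In SP0-mated females they ran from 86.5 to 98.9 CPM with a median of 92.9 CPM, and in virgin females from 99.3 to 110 CPM with a median of 104 CPM. All 6 SP0-mated libraries lay below all 6 virgin libraries, while 4 of the 6 wildtype-mated libraries did. Some day 4 libraries were high in gut genes. The summed level of 6 gut markers was 1049 and 1095 CPM in sham virgin replicates 2 and 3. It was 1677 CPM in sham wildtype-mated replicate 3 and 1509 CPM in D3Inj male replicate 3. The medians of the 4 kinds were 0.84 to 4.76 CPM. A fit without these 4 libraries is among the alternatives at the end.

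SPR averaged 92.8 ± 4.27 CPM in SP0-mated and 104.3 ± 4.50 CPM in virgin females on day 4 (SD, n = 6 each). The log2 fold change was −0.16 with a standard error of 0.038. This difference did not pass the edgeR quasi-likelihood test after adjustment over all 14631 features (adjusted p = 0.171, unadjusted p = 0.000315). It passed in DESeq2 (adjusted p = 0.0199), and in the exact permutation test of SPR alone it reached the smallest two-sided p that 6 against 6 libraries allow (p = 0.00217, adjusted over 16 comparisons 0.0115). The edgeR test called 0 features between these kinds, 0% of those tested, with 1574 at an unadjusted p under 0.05, and DESeq2 called 86.

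Wildtype-mated females averaged 96.0 ± 5.80 CPM on day 4, against 104.3 ± 4.50 CPM in virgin females (SD, n = 6 each), a log2 fold change of −0.12 with a standard error of 0.038. It did not pass the test (adjusted p = 0.424, unadjusted p = 0.0041) in a comparison where 0.123% of features were called. The exact permutation test gave p = 0.0216, which became 0.0693 after adjustment. Wildtype-mated and SP0-mated females differed by 0.040 with a standard error of 0.038 (adjusted p = 0.684, 0.103% of features called), less than the spread between libraries. The 2 kinds of mated female therefore lay on the same side of the virgin females and were not separated from each other by the test.

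Males averaged 101.4 ± 4.23 CPM on day 4. They were above SP0-mated females by 0.11 on the log2 scale with a standard error of 0.038, and 4 of 6 male libraries lay above all SP0-mated ones. This difference passed the edgeR test narrowly (adjusted p = 0.0448), among 15.5% of features called between these kinds, and the exact permutation test gave 0.0346 after adjustment. The call was lost when any 1 of 9 of the 12 libraries was left out, with adjusted p between 0.0504 and 0.118, and it was lost within sham and within D3Inj libraries taken alone. Males differed from wildtype-mated females by 0.074 (adjusted p = 0.238, 13.6% of features called) and from virgin females by −0.048 (adjusted p = 0.494, 13.5% called), and neither passed. In the order virgin, male, wildtype-mated, SP0-mated, no neighbouring kinds passed the test.

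**Figure D2:**
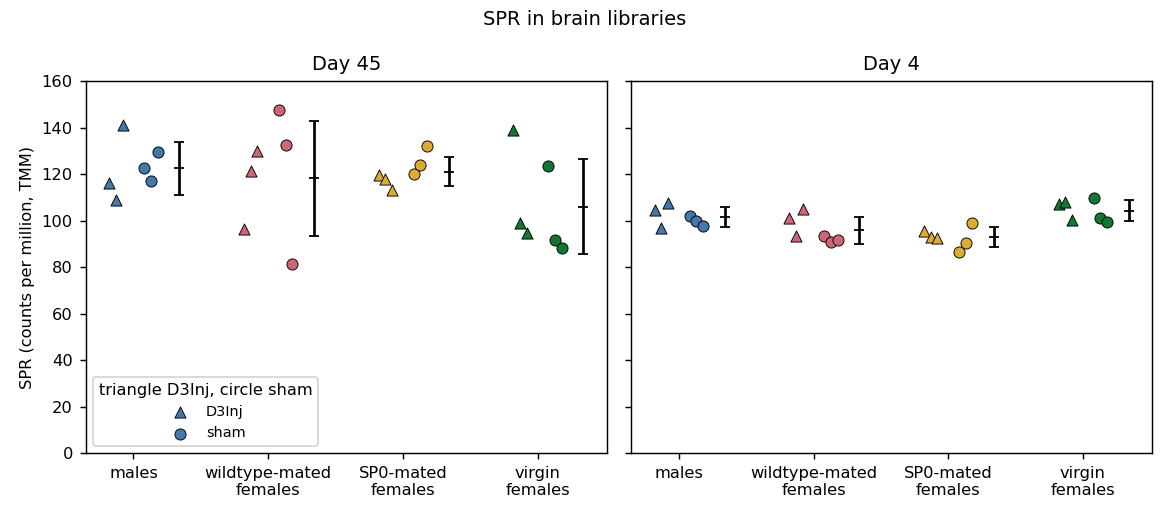
SPR in CPM (TMM-scaled, axis from 0) in each of 48 libraries, by kind of fly on day 45 (left) and day 4 (right), with triangles for D3Inj, circles for sham and a black bar for the mean ± SD of 6 libraries. On day 45 wildtype-mated and virgin libraries spread from 81.5 to 148 CPM, while on day 4 the kinds average 92.8 to 104.3 CPM with SD of 4.23 to 5.80.

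By day 45 SPR was higher on average in males and in both kinds of mated female, and the libraries of some kinds had spread widely. The 6 male libraries ran from 109 to 141 CPM with a median of 120 CPM. The wildtype-mated libraries ran from 81.5 to 148 CPM with a median of 126 CPM. The SP0-mated libraries kept close together, from 113 to 132 CPM with a median of 120 CPM, and the virgin libraries ran from 88.1 to 139 CPM with a median of 96.9 CPM. Within groups the SD of SPR on the log2 scale was 0.243 on day 45, against 0.0661 on day 4. On day 45 this was above the SD of 98.2% of 981 genes of like level, whose median was 0.0646. On day 4 it was above that of 59.3% of 1000 such genes, so the wide spread was seen in the older brains only.

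On day 45 no pair of kinds passed the test. SPR averaged 118.2 ± 24.6 CPM in wildtype-mated and 106.0 ± 20.5 CPM in virgin females (SD, n = 6 each), a log2 fold change of 0.16 with a standard error of 0.12 (adjusted p = 0.85). That comparison called 0 features (0%), with 1027 at an unadjusted p under 0.05 and 2 called by DESeq2. SP0-mated females averaged 121.1 ± 6.38 CPM and lay above virgin females by 0.20 (adjusted p = 0.652, 0.0262% called). Wildtype-mated females differed from SP0-mated females by −0.033 (adjusted p = 0.984, 0.0393% called). Males averaged 122.5 ± 11.5 CPM and differed from virgin females by 0.21 (adjusted p = 0.297, 11.7% called), from SP0-mated females by 0.013 (adjusted p = 0.967, 12.9% called) and from wildtype-mated females by 0.046 (adjusted p = 0.888, 9.95% called). The exact permutation tests of these 6 pairs gave adjusted p between 0.169 and 0.898.

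The libraries low in SPR on day 45 were marked by the clock genes. cry, the gene of the blue-light receptor cryptochrome, had the second highest correlation with SPR over all 48 libraries after group means were subtracted, and the other clock genes were examined after that value was seen. tim and per encode the repressors of the circadian feedback loop, vri encodes a repressor of Clk, and Clk encodes the activator of tim, per and vri. On day 45 tim lay above 150 CPM, a bound set after the values were seen, in 7 libraries, between 178 and 329 CPM, and between 41.6 and 145 CPM in the other 17. SPR lay between 81.5 and 109 CPM in those 7 libraries and between 113 and 148 CPM in the other 17, with no overlap.

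Of 6 other clock genes, 4 split the same libraries without overlap and 2 did not. per was between 54.2 and 91.5 CPM in the 7 libraries with high tim, against 21.0 to 51.8 CPM in the other 17. vri was between 147 and 228 CPM, against 32.0 to 101 CPM. Clk ran the other way, between 8.5 and 20.1 CPM against 22.4 to 33.3 CPM, and so did cry, between 30.6 and 45.3 CPM against 46.5 to 58.3 CPM. Pdp1, an activator of Clk, overlapped at 852 to 1010 CPM against 688 to 883 CPM, and so did cwo, a repressor of the loop, at 105 to 119 CPM against 92.5 to 110 CPM. SPR thus stood with Clk and cry, and opposite to tim, per and vri.

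The kinds of fly shared these libraries unevenly. The 7 libraries with high tim were 1 male (D3Inj replicate 2), 2 wildtype-mated (D3Inj replicate 1 and sham replicate 3), 4 virgin (replicates 2 and 3 of both treatments) and 0 SP0-mated libraries. Among the other libraries SPR was between 116.1 and 141.2 CPM in 5 male, between 121.2 and 147.5 CPM in 4 wildtype-mated, between 113.3 and 132.1 CPM in 6 SP0-mated and at 123.7 and 138.8 CPM in 2 virgin libraries. Since high tim and low SPR mark the same libraries, these ranges do not show how the kinds compare at equal tim. The time of day at which each library's brains were collected is not given in the sources used here.

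**Figure D3:**
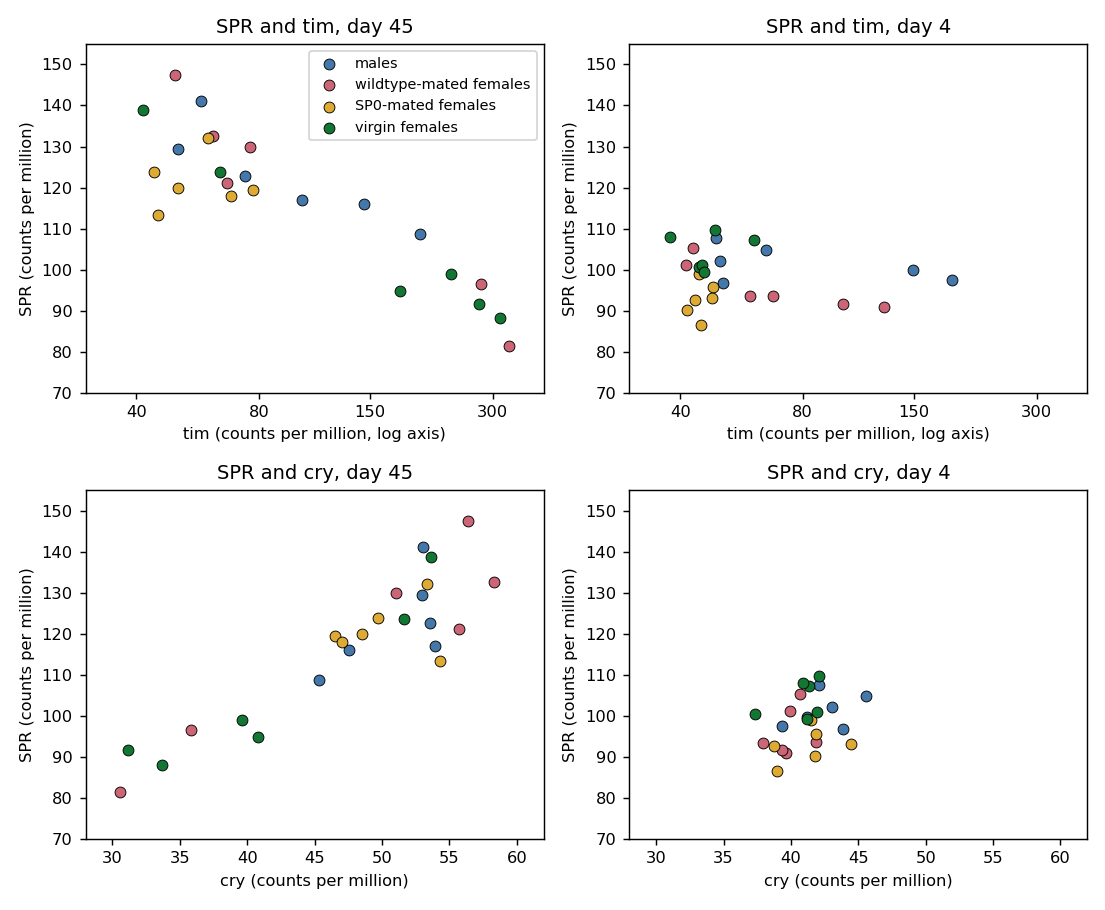
SPR (CPM) against tim (top, CPM on a log axis) and cry (bottom, CPM) in 24 libraries of day 45 (left) and 24 of day 4 (right), colored by kind of fly. On day 45 the 7 libraries with tim above 150 CPM hold SPR at 81.5 to 109 CPM and the other 17 at 113 to 148 CPM, while on day 4 SPR stays between 86.5 and 110 CPM at all levels of tim.

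Over the 24 libraries of day 45, deviations from the group means of SPR and tim had a Pearson correlation of −0.934 and a Spearman correlation of −0.920, and Pearson's was −0.911 without the 2 libraries farthest from the median of tim. Pearson's correlation of SPR was −0.924 with per, −0.929 with vri, −0.818 with Pdp1, −0.868 with cwo, 0.90 with Clk and 0.91 with cry. cry was picked because it followed SPR and the others were examined for that reason, the libraries fall into 2 clusters, and the values are given as a description. Within the 17 libraries with low tim the correlation of SPR and tim levels was −0.437. In the same 17 libraries the correlation of SPR levels was −0.378 with per, −0.408 with vri and −0.0572 with Pdp1. It was −0.558 with cwo, 0.21 with Clk and 0.49 with cry. On day 4 the corresponding correlation of deviations was −0.269 with tim, −0.067 with per, 0.106 with Clk and 0.48 with cry. In 1 day 4 library, from sham males, tim reached 186 CPM, with SPR at 97.5 CPM.

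SPR rose on average between day 4 and day 45 in 3 of the 4 kinds of fly. All 6 male libraries of day 45 lay above all 6 of day 4, at 122.5 ± 11.5 against 101.4 ± 4.23 CPM (SD, n = 6 each), a log2 fold change of 0.27 with a standard error of 0.093 (adjusted p = 0.0162). Wildtype-mated females averaged 118.2 ± 24.6 CPM on day 45, against 96.0 ± 5.80 CPM on day 4, a log2 fold change of 0.30 (standard error 0.094, adjusted p = 0.00795). Of their 6 older libraries 4 lay above all younger ones, and 1, at 81.5 CPM, lay below them all. All 6 SP0-mated libraries of day 45 were above all of day 4, at 121.1 ± 6.38 against 92.8 ± 4.27 CPM, a log2 fold change of 0.38 (standard error 0.094, adjusted p = 0.000926). Virgin females averaged 106.0 ± 20.5 CPM on day 45, against 104.3 ± 4.50 CPM on day 4, a log2 fold change of 0.021 with a 95% interval from −0.17 to 0.21 (adjusted p = 0.883). Of their 6 older libraries 2 lay above all younger ones and 4 lay below them all.

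Change with age was common in these brains. edgeR called 44.2% of 15640 features in males, 43.1% in wildtype-mated, 43.1% in SP0-mated and 40.8% in virgin females, so a call for SPR is no rare event. In the exact permutation tests the change in males and in SP0-mated females reached the smallest p (p = 0.00217, adjusted 0.0115 each), and that in wildtype-mated females did not pass (p = 0.0649, adjusted 0.169). Leaving out D3Inj male replicate 3 of day 45 ended the call in males (0.21, adjusted p = 0.0749), and leaving out sham wildtype-mated replicate 1 of day 45 ended it in those females (0.22, adjusted p = 0.0624). With 3 libraries a group, sham alone gave 0.30 in males (adjusted p = 0.077), and D3Inj alone gave 0.24 in males, 0.21 in wildtype-mated and 0.32 in SP0-mated females (adjusted p = 0.177, 0.228 and 0.063).

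The change with age was not shown to differ between kinds. It was larger in SP0-mated than in virgin females by 0.36 with a standard error of 0.13 (unadjusted p = 0.00947, adjusted p = 0.527), and larger in wildtype-mated than in virgin females by 0.28 (unadjusted p = 0.0406, adjusted p = 0.963). It was larger in males than in virgin females by 0.25 (adjusted p = 0.578). The comparisons of SP0-mated and of male with virgin females were added after the values were seen. Wildtype-mated females differed from males by 0.030 (adjusted p = 0.971) and from SP0-mated females by −0.081 (adjusted p = 0.918). These tests called 0% of features for SP0-mated against virgin (1128 at an unadjusted p under 0.05, 3 by DESeq2), 0% for wildtype-mated against virgin (794 and 8) and 0% for wildtype-mated against SP0-mated females (1301 and 3). They called 0.85% for males against virgin females and 1.07% for wildtype-mated females against males.

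**Figure D4:**
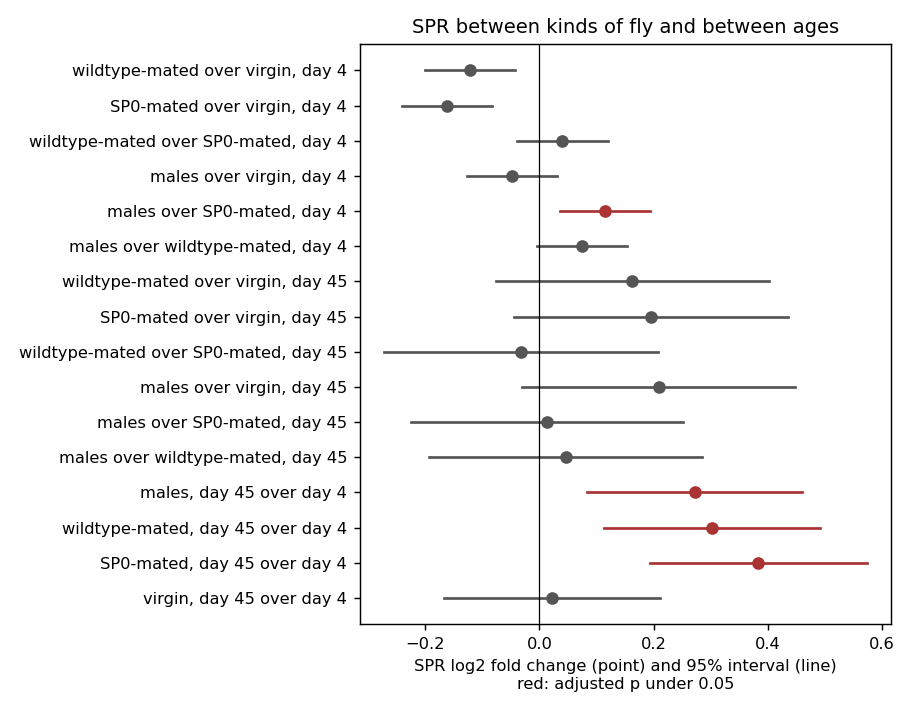
SPR log2 fold change (points) with 95% intervals (lines) for 12 comparisons of kinds and 4 comparisons of day 45 over day 4, red where the adjusted p is under 0.05. The red points are males over SP0-mated females on day 4 at 0.11 and the change with age in males, wildtype-mated and SP0-mated females at 0.27 to 0.38.

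Other fits that used tim were added after the data were seen and serve as a description of these libraries. The gene was taken up after it was seen to follow SPR, and the 7 libraries with high tim are also the 7 lowest in SPR on day 45, so leaving them out raises the older mean by construction. With tim as a covariate the log2 change with age was 0.31 in males, 0.41 in wildtype-mated, 0.45 in SP0-mated and 0.32 in virgin females. Without the 7 libraries it was 0.33, 0.48, 0.39 and 0.33 in the same order, with 2 virgin libraries of day 45 left and the day 4 library with tim at 186 CPM kept. These values are no test of a change with age, and 4 of the 6 virgin libraries behind the value of 0.021 were high in tim and low in SPR.

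Head trauma went with no change of SPR that passed the test. On day 4 the 3 D3Inj wildtype-mated libraries had 101.1, 93.4 and 105.2 CPM, against 93.6, 90.9 and 91.7 CPM in the sham ones. This was the largest of the day 4 responses, 0.12 with a standard error of 0.054 (unadjusted p = 0.031, adjusted p = 0.917). The 2 D3Inj libraries above all sham ones had tim at 41.45 and 42.96 CPM, against 59.25 to 126.6 CPM in the other wildtype-mated libraries. The SP0-mated libraries of day 4 had tim at 41.5 to 48 CPM too, with SPR at 86.5 to 98.9 CPM. The part of tim in this response was not tested. The responses of males, virgin and SP0-mated females on day 4 were 0.042, 0.027 and 0.034, each within 1 standard error of 0. On day 45 they were −0.0094 in males, −0.056 in wildtype-mated, 0.14 in virgin and −0.10 in SP0-mated females, each within 1 standard error of 0 (adjusted p between 0.956 and 1). The 3 D3Inj SP0-mated libraries of day 45, at 119.5, 117.9 and 113.3 CPM, lay below the 3 sham ones, at 120.0, 123.9 and 132.1 CPM. The edgeR test did not pass there (unadjusted p = 0.535). How many of all features separate these libraries in the same way was not counted, so no result is drawn from the separation.

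Few features responded to injury at all. On day 4 the test called 0.00683% of features in males, 0% in wildtype-mated (783 at an unadjusted p under 0.05, 0 by DESeq2), 0.0547% in virgin and 0.00683% in SP0-mated females. On day 45 it called 0% in males (872 and 3), wildtype-mated (730 and 0), virgin (288 and 0) and SP0-mated females (984 and 0). The response of SPR in wildtype-mated females exceeded that in males by 0.082, in virgin females by 0.097 and in SP0-mated females by 0.090 on day 4 (adjusted p between 0.999 and 1). On day 45 the differences were −0.047, −0.19 and 0.047 in the same order (adjusted p between 0.994 and 1). All 6 of these tests called 0% of features, with 467 to 823 at an unadjusted p under 0.05, and DESeq2 called 0 to 6.

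Of the ligands of SPR, the male peptides were at the floor in the brain, as 34 of 48 libraries had 0 counts of the sex peptide gene SP and the others at most 7. Dup99B, the related ductus peptide, had 0 counts in all 48 libraries, where a count of 0 allows up to 3. Mip, the gene of the brain ligand, averaged 80.1 CPM. On day 45 it was lower in males than in the females, at 85.9 ± 5.20 CPM in males, against 109.7 ± 15.8 in wildtype-mated, 119.2 ± 8.77 in SP0-mated and 116.5 ± 7.98 CPM in virgin females (SD, n = 6 each). The log2 fold changes were −0.36, −0.47 and −0.44 (adjusted p = 0.000656, 1.84e-05 and 5.48e-05). Mip rose with age in every kind, by 0.68 in males, 1.04 in wildtype-mated, 1.14 in SP0-mated and 1.26 in virgin females (adjusted p at most 5.961e-11), and no pair of kinds passed on day 4. In virgin females the ligand thus rose with age where SPR itself had no call. SPRR, a second receptor of these peptides, could not be matched to a feature and was not used here.

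Of the 11 genes of the sex peptide network, which act in the male accessory gland and the female tract, 6 passed the filter on day 4 and 7 on day 45. None was called between kinds of female on either day, where 0% to 0.123% of all features were called, and the medians lay between −0.044 and 0.11. frma, the gene that overlaps SPR, was lower in males than in all 3 kinds of female. On day 4 males averaged 2.81 ± 0.74 CPM, against 6.95 ± 3.02, 4.87 ± 0.64 and 6.20 ± 1.81 CPM in wildtype-mated, SP0-mated and virgin females (SD, n = 6 each), log2 fold changes of −1.31, −0.81 and −1.15 (adjusted p between 0.000988 and 0.0378). On day 45 they were −0.87, −0.91 and −0.96 (adjusted p between 0.00271 and 0.00744). SPR did not show this pattern. lectin-46Ca was also called lower in males on day 4, and lectin-46Cb rose with age in wildtype-mated females. CG17575, another member of the network, went the other way on day 45. It was higher in males than in virgin, SP0-mated and wildtype-mated females by 2.79, 2.44 and 2.11 (adjusted p = 0.00436, 0.00954 and 0.0236). These values are imprecise, with standard errors of 0.60 to 0.65. CG17575 is the member that passed the filter on low counts on day 45 only, so it had no test between kinds on day 4. The genes ppk, fru and dsx are markers of the sex peptide sensory neurons, which lie in the female reproductive tract. These libraries came from dissected brains, so the values of these genes do not show the state of those neurons. None of these genes was called between kinds of female. In males dsx was called higher than in each kind of female on both days, by 0.64 to 1.49. There fru was called lower on day 4, by −0.63 to −0.80, and on day 45 against SP0-mated females only. With age dsx was called higher in every kind of fly, and ppk lower in wildtype-mated and SP0-mated females. The calls of fru with age were higher in males and lower in every kind of female.

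No peptide receptor of the list was called between kinds of female on either day, where at most 0.123% of all features were, and the medians of the 39 receptors ran from −0.035 to 0.032, against −0.0062 to 0.0017 over all features. Between males and females 9 or 10 of 39 receptors were called in each pair, where 9.95% to 15.5% of all features were. Lkr, the leucokinin receptor, was lower in males than in each kind of female, by −0.54 to −0.62 on day 4 and by −1.0 to −1.07 on day 45 (adjusted p at most 1.324e-05). Proc-R, the proctolin receptor, was higher in males than in SP0-mated females by 0.32 on day 4 and 0.41 on day 45, and than in virgin females by 0.30 and 0.26 (adjusted p between 1.183e-06 and 0.000568). Against wildtype-mated females it was higher by 0.26 on day 4 (adjusted p = 0.000552) and by 0.16 on day 45 (adjusted p = 0.0369). Between males and SP0-mated females on day 4, SPR was 1 of 4 receptors called higher, beside Proc-R, CrzR and Dh31-R.

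With age, receptors moved both ways. Among the 39 receptors 5 were called higher and 17 lower in males, 13 and 7 in wildtype-mated, 13 and 14 in SP0-mated and 9 and 13 in virgin females, where 40.8% to 44.2% of all features were called. SIFaR, the receptor of the peptide SIFamide, rose in all 4 kinds by 0.47 to 0.70, and Lgr3, a relaxin-type receptor, rose by 0.35 to 0.59. AstC-R2, an allatostatin C receptor, fell by 0.42 to 0.54 in all 4. The rise of SPR in SP0-mated females, 0.38, lay below that of SIFaR and Lgr3 in the same flies.

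Among the G proteins and cyclic AMP enzymes downstream of such receptors more were called lower than higher with age. Of 18 genes 3 were called higher and 14 lower in males, 3 and 10 in wildtype-mated, 3 and 6 in SP0-mated and 4 and 8 in virgin females, with medians of −0.15, −0.13, −0.052 and −0.10 against −0.0060 to 0.0096 over all features, of which 40.8% to 44.2% were called. The 6 neuronal markers were lower with age in the same comparisons, with 6, 6, 5 and 5 called and medians of −0.52, −0.47, −0.40 and −0.39 in the same order of kinds. The part of these markers in the result was not tested. Ggamma1, a G protein gamma subunit, was lower on day 45 in all 4 kinds by −0.48 to −0.55, and Ac3, an adenylyl cyclase, by −0.34 to −0.41. CrebB, a transcription factor of the cyclic AMP pathway, rose by 0.32 to 0.40, and loco, a regulator of G protein signaling, by 0.29 to 0.38. Between kinds of female none of the 18 was called on either day. Between males and females 2 to 5 were called in each pair, where 9.95% to 15.5% of all features were.

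Among the older libraries the summed glial markers moved with SPR and the summed photoreceptor markers moved against it. Over the 24 libraries of day 45 the deviations of SPR had a Pearson correlation of 0.656 with the summed level of 6 glial markers and of −0.472 with that of 6 photoreceptor markers, and on day 4 of −0.0757 and 0.408. The glial sum ran from 2906 to 3078 CPM in males, 2456 to 2756 CPM in wildtype-mated, 2402 to 2716 CPM in SP0-mated and 2337 to 2707 CPM in virgin females on day 45. On day 4 it ran from 4701 to 5198, 4000 to 4399, 3808 to 4360 and 3967 to 4399 CPM in the same order, so the glial sum was lower on day 45 in each kind. The single glial markers were split, with 1 called higher and 4 lower with age in males, and 2 and 4 in each kind of female. In all 4 kinds repo was higher on day 45, by 0.28 to 0.40, and Eaat1 was lower, by −1.05 to −1.11. All 6 neuronal markers passed the filter on both days, and their sum was lower on day 45 too, at 7306 to 8481 CPM over the 4 kinds against 9860 to 11490 CPM on day 4. Of 6 fat body markers 1 was called higher with age in males, 0 in wildtype-mated, 6 in SP0-mated and 4 in virgin females, with medians of −0.45, 0.32, 1.35 and 0.64. Over all features 40.8% to 44.2% were called in either direction in these comparisons. The part of these cell types in the result was not tested, and in whole brains fewer cells of a type cannot be told apart from less RNA per cell.

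The genes most like SPR depended on the measure. Over the 16 group means of log2 CPM, NT5E-2 had a Pearson correlation of 0.934 with SPR, atk 0.909, Usp47 0.908, Nab2 0.906 and CG6621 0.904, where the 95th percentile of 9024 genes was 0.805. NT5E-2 was picked on these same group means, so a small change with age in virgin females, as in SPR, is largely set by that choice. It was at 2.95 CPM on day 45, against 2.72 CPM on day 4, in virgin females, while in males it had 4.61 against 2.73 CPM. Over the 48 libraries after subtraction of group means, CG10513 reached 0.888, cry 0.884, Dip-B 0.859, CG6040 0.847 and Ugt35B1 0.844, where the 95th percentile was 0.357. Spearman's correlation of these 5 genes with SPR was lower, at 0.694 to 0.768. Most of the spread of SPR within groups lay on day 45, with an SD of 0.243 against 0.0661 on day 4. For cry the correlation was 0.91 on day 45 and 0.48 on day 4. Dip-B encodes a dipeptidase and Ugt35B1 a UDP-glycosyltransferase. The points share library, depth and normalization, and none of these values was tested.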

How the data were processed

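RNA of brains was counted in 48 libraries. Per the labels and methods, the authors removed ribosomal RNA and built stranded paired-end libraries. After FastQC the reads were aligned by STAR (dm6, Ensembl genes) and assigned by featureCounts, with versions and strand option not given in the sources used here. Values in the deposited files are whole counts without normalization over 23932 features. Libraries were grouped by column header.

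Tests used edgeR 4.0.16 under R 4.3.3 (TMM, filterByExpr, 1 coefficient per group, quasi-likelihood F test, Benjamini-Hochberg adjustment over all features, threshold 0.05). The 24 libraries of a day were fitted together for kinds and injury, and all 48 for age, each kind being the mean of its sham and D3Inj groups. A standard error is |log2 fold change| divided by √F. CPM use TMM library sizes, and log2 CPM a prior count of 2. DESeq2 1.42.0 was an alternative. Exact permutation tests of SPR were two-sided and adjusted over 16 comparisons. Scripts were tested on simulated data.

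Named genes were SPR, its neighbours, Mip, list members called between kinds or with age (the 3 largest each way where more than 6 were called), and the 5 genes most like SPR by each measure, among genes of at least 1 log2 CPM. Values are printed for those the text turns on. SPR and the lists were chosen with earlier results of these data known. Alternatives were other size factors, DESeq2, no filter, a replicate block, leaving out libraries, the deposit record, 1 treatment only, other sets of libraries in the fit, and tim. Poisson error of SPR was 1.18% to 2.13% of its count per library, and limits at 0 counts cover counting error only.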

Additional observations from a re-analysis of the deposited data

How the results depend on the processing

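The values here are log2 fold changes of SPR unless another gene is named. Of the 35 comparisons of SPR, 4 passed the threshold. Among the fits over all features, SP0-mated against virgin females on day 4 passed in DESeq2 alone (−0.16). The change with age in SP0-mated females passed under all alternatives except D3Inj libraries only (0.32) and the deposit record (0.082).

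The call of males over SP0-mated females on day 4 was lost without the filter on low counts (0.11), in sham libraries only (0.11), in D3Inj libraries only (0.12), with all 48 libraries in the fit (0.13), without the 4 libraries highest in gut genes (0.098), with only the compared groups in the fit (0.12), with tim as a covariate (0.14) and by the record (0.0997). The change with age was lost in sham libraries only for males (0.30) and in D3Inj libraries only for males (0.24) and wildtype-mated females (0.21). In sham libraries only, wildtype-mated against SP0-mated females on day 4 (−0.0049), males against SP0-mated females on day 45 (−0.034) and the age change of virgin females (−0.033) reversed. In D3Inj libraries only, wildtype-mated females minus males in age change reversed (−0.028). Without the 4 gut-high libraries the injury response of virgin females on day 4 (−0.053) and their age change (−0.022) reversed. The cause was not tested.

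The fits with tim were chosen on the outcome and are no test. With tim as a covariate, SP0-mated against virgin (−0.090) and wildtype-mated against SP0-mated females on day 45 (0.14), the day 45 injury response of males (0.14) and wildtype-mated females (0.011), the response of wildtype-mated minus virgin females (0.0021) and males minus virgin females in age change (−0.0078) reversed, while males over SP0-mated females on day 45 (0.17) and the age change of virgin females (0.32) went past the threshold. Without the 7 libraries with high tim, all of them low in SPR, the age change of virgin females was 0.33, past the threshold. SP0-mated against virgin (−0.11), wildtype-mated against SP0-mated (0.14), males against virgin (−0.061) and against wildtype-mated females (−0.083) on day 45 reversed, as did the day 45 injury response of males (0.066), that of wildtype-mated minus SP0-mated females (−0.050), and in age change wildtype-mated minus SP0-mated (0.096) and male minus virgin flies (−0.0053).

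By the deposit record, where 20 libraries go against roX1, no comparison of SPR passed. On day 4 wildtype-mated against virgin females (0.036), males against virgin (0.019) and against wildtype-mated females (−0.018) and the injury response of males (−0.24), wildtype-mated (−0.092) and SP0-mated females (−0.11) and of wildtype-mated minus virgin females (−0.22) reversed. On day 45 wildtype-mated (−0.068) and SP0-mated females (−0.018) against virgin females reversed, as did the injury response of males (0.041), virgin (−0.042) and SP0-mated females (0.14) and of wildtype-mated minus SP0-mated females (−0.18). The age change was 0.056 in males and reversed in wildtype-mated females (−0.078), as did that of wildtype-mated females minus males (−0.13) and minus virgin females (−0.0999). For males against virgin, SP0-mated and wildtype-mated females on day 45 frma gave 0.42, 0.075 and 0.13, and on day 4 against virgin and SP0-mated females 0.43 and 0.56. Lkr gave 0.48, 0.63 and 0.12 on day 4 against virgin, SP0-mated and wildtype-mated females and 0.17 on day 45 against virgin females. Proc-R gave −0.14 and −0.15 on day 4 against virgin and SP0-mated females and −0.11 on day 45 against virgin females. Mip gave 0.30 and 0.061 on day 45 against virgin and SP0-mated females, and −0.11 with age in both male and virgin flies. With age in virgin females loco gave −0.062, Ggamma1 0.13, Ac3 0.084, SIFaR −0.17, Lgr3 −0.062 and AstC-R2 0.12, and loco gave −0.058 in SP0-mated females.

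When each library was left out in turn, males over SP0-mated females on day 4 ran from 0.093 to 0.14, and the age change from 0.21 to 0.31 in males, 0.22 to 0.41 in wildtype-mated and −0.088 to 0.071 in virgin females. On day 45 wildtype-mated against SP0-mated females ran from −0.12 to 0.079, males against SP0-mated from −0.042 to 0.054 and against wildtype-mated females from −0.063 to 0.13. The injury response ran from −0.0079 to 0.089 in SP0-mated females on day 4, and on day 45 from −0.13 to 0.066 in males, −0.27 to 0.12 in wildtype-mated and −0.059 to 0.30 in virgin females. Wildtype-mated minus male, virgin and SP0-mated responses on day 45 ran from −0.26 to 0.13, −0.41 to 0.0038 and −0.17 to 0.22. In age change wildtype-mated females minus males ran from −0.056 to 0.14 and minus SP0-mated females from −0.17 to 0.028. Of 24 same-numbered D3Inj and sham pairs, 4 had a correlation over 0.1. This does not decide whether the replicate numbers pair libraries, as the cut of 0.1 was not set against a reference. A replicate block changed no call of SPR, with males over SP0-mated females on day 4 at 0.11 (adjusted p = 0.0422), and 10 of 24 D3Inj libraries correlated best with their own number. On day 4 the block called 54 features between wildtype-mated and SP0-mated females, against 15, and 4 between SP0-mated and virgin females, against 0. DESeq2 called 216 and 86 in these comparisons and 48, against 18, for wildtype-mated over virgin females. On day 45 it called 80, against 4, between SP0-mated and virgin females and 48, against 6, between wildtype-mated and SP0-mated females. Of 1196 values of the other named genes under these alternatives 1108 kept direction and side of the threshold, 65 lost the call and 23 reversed, and 150 of 1472 counts of list members called moved by more than 1.5 times. Likeness to SPR by Spearman's measure put cry first of 9024 genes within groups. There CG10513, Dip-B, Ugt35B1 and CG6040 ranked 3, 4, 6 and 10. Over group means it ranked NT5E-2 at 3, CG6621 at 26, atk at 29, Nab2 at 37 and Usp47 at 85.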
